A study of Mus musculus with 30 samples.

Results

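The serum amyloid A family is a group of small, mainly liver-made plasma proteins, and the part of the study described here is its 4 mouse genes, Saa1, Saa2, Saa3 and Saa4, measured in the liver after carbon black nanoparticles were instilled into the airways. Members were taken by transcript: every probe whose RefSeq transcript in the array files belongs to one of these genes was used, which gave 6 probes for 4 genes out of 17016 named genes on the array. All 6 probes were among the 23607 probes tested, which stand for 12188 named genes. Saa1 has the probes A_52_P318673 and A_51_P361650, Saa2 has A_51_P166886, Saa3 has A_51_P337308, and Saa4 has A_51_P142529 and A_52_P404329.

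The livers came from 30 female C57BL/6 mice of 5 to 6 weeks at purchase, 1 array per mouse. The 14 exposed mice had received 0.162 mg of Printex 90, a carbon black powder of nanometre-sized particles, by intratracheal instillation in 40 ul of saline that held 10% mouse lavage fluid, followed by 150 ul of air. For the 16 control mice the labels give the treatment as none, and whether they received the carrier fluid is not given in the sources used here. Liver RNA was labelled with Cy5, and the same universal mouse reference RNA was labelled with Cy3 on every array, so each probe has a liver signal, a reference signal and a log2 Cy5/Cy3 ratio. The animal numbers of each group fall into 3 runs of neighbouring numbers (6, 5 and 5 control mice, then 4, 5 and 5 mice that were exposed, for runs 1, 2 and 3). What a run stands for is not stated in the labels, and no label ties an animal to a time after instillation.

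Saa1 and Saa2 are the classical acute phase serum amyloids of the mouse. Hepatocytes make them in quantity when interleukin-6, interleukin-1 and tumour necrosis factor act through STAT3, NF-kB and C/EBP factors, and they circulate on high-density lipoprotein. Saa3 is made in the liver and also by macrophages, adipocytes and epithelia, and Saa4 is the constitutive member, made by the liver with little response to inflammation.

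The genes lie side by side on chromosome 7, where the RefSeq gene table orders them Saa3, Saa4, a pseudogene (Saa-ps), Saa1 and Saa2, with 1 long non-coding gene (Gm31882) between Saa3 and Saa4. The 250 bases before the start of each gene, from the RefSeq-based promoter table, are printed below because 3 of the genes moved together and because the pair Saa1 and Saa2 is nearly identical there. Capitals mark matches to a C/EBP motif (TTGCNNAA), a STAT motif (TTCNNNGAA) or the NF-kB consensus, searched on both strands.
Saa1 promoter (GRCm38.p6, chr7:46742981-46743230, minus strand): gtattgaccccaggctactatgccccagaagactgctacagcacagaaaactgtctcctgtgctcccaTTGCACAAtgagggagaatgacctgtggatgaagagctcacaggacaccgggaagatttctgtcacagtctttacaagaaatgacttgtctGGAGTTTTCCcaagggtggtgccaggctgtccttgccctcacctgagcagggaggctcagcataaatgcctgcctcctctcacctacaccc
Saa2 promoter (GRCm38.p6, chr7:46751583-46751832, plus strand): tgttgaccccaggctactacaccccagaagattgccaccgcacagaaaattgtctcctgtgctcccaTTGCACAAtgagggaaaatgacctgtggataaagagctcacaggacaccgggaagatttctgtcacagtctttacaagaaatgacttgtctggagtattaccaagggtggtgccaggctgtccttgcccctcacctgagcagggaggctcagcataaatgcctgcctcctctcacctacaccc
Saa3 promoter (GRCm38.p6, chr7:46715677-46715926, minus strand): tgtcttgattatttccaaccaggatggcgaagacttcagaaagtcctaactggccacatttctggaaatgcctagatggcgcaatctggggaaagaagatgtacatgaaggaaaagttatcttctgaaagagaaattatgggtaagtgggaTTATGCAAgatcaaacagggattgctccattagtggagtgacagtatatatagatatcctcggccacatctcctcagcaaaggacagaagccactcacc
Saa4 promoter (GRCm38.p6, chr7:46732604-46732853, minus strand): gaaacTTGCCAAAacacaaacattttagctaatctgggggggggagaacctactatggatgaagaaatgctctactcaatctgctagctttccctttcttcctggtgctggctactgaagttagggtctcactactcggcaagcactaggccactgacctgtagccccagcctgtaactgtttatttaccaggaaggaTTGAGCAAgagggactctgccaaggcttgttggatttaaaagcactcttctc
Saa1 and Saa2 shared 238 identical bases over an alignment of 251 (94.8%), whereas Saa3 and Saa4 matched Saa1 at 50.2% and 46% and each other at 46.8%. Each of the 4 promoters held a C/EBP match, 1 in Saa1, Saa2 and Saa3 and 2 in Saa4, as did 9.56% of the 32851 promoters of this length in the table. The NF-kB consensus was found in Saa1 only, at 91 to 82 bases before the start and on both strands (9.55% of all promoters hold 1), and the STAT motif was found in none of the 4 (7.02% of all promoters). A match is a run of letters and not evidence of binding, and no match says only that these letters are not in the window.

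None of the 6 member probes was saturated, and in Cy5 each exceeded background clearly on 30 of 30 arrays. The A_51_P361650 spot of control 548 was marked as an outlier by the scanner software and was left out of the fits. The 75th percentile of Cy5 over all spots ranged from 290 to 680 on control arrays and from 306 to 606.5 on exposed arrays. The arrays lie on 9 slides, of which 7 hold both groups, and were read with 2 versions of the extraction software (25 and 5 arrays). All run 1 arrays of both groups sit in the first position of their pair on the slide, and this position was added as a term in an alternative fit. All control arrays lie in slide positions 1 and 2 and all exposed arrays in positions 3 and 4, so group and side of the slide cannot be told apart. Replicates are separate animals. The hepatocyte marker Alb was well above background on all 30 arrays, as were the Kupffer cell markers Clec4f, Vsig4 and Timd4. In whole liver, fewer cells of a type and less RNA per cell cannot be told apart.

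Liver signal at Saa1, Saa2 and Saa3 was far higher in exposed run 1 than in nearly all other mice. At the Saa2 probe the Cy5 signals of exposed animals 176, 177, 179 and 180 were 138646, 56553, 439149 and 350042. The next 10 exposed animals lay between 7366.5 and 42480, with a median of 12664. Among controls the lowest was 6401, the median 13128.5 and the highest 333802. Animals 179 and 180 were thus above every control, animal 176 was above all controls but 551, and animal 177 was above all but 549 and 551.

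**Figure D1:**
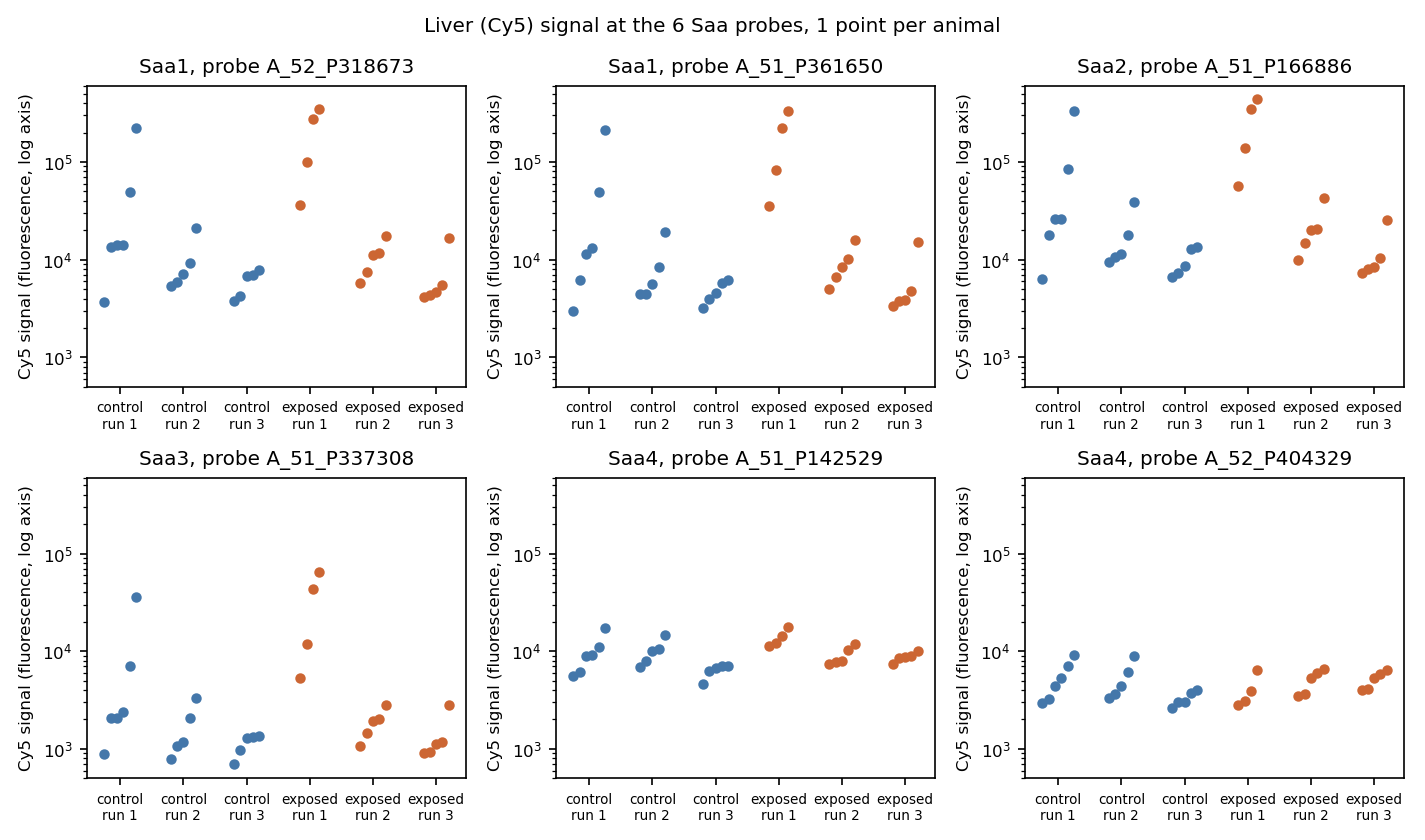
Cy5 signal of each of the 30 animals at the 6 probes (vertical log axis, fluorescence units), by group and run; each point is 1 mouse, ordered by value within a run. At Saa1, Saa2 and Saa3 the 4 mice of exposed run 1 and 2 mice of control run 1 stand above the rest, and at the second Saa4 probe they do not.

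The controls above animal 177 were 549 and 551, both of control run 1, with Saa2 signals of 84226 and 333802. The next highest control, 570 of run 2, had 39184. Without 549 and 551 the controls ranged from 6401 to 39184, and every animal of exposed run 1 was above that range. These animals were singled out by their values, so any figure without them is a description.

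Saa1, whose product is the other major plasma serum amyloid, showed the same animals high at both of its probes. At A_52_P318673 exposed run 1 had 99223.5, 36699, 349834 and 274539 in animals 176, 177, 179 and 180. Exposed runs 2 and 3 lay between 4195 and 17510, and the controls between 3683 and 224445 with a median of 7506.25. Controls 549 and 551 had 49079.5 and 224445 and were again the only controls above animal 177. At A_51_P361650 the values of exposed run 1 were 81951, 35408, 330500 and 221280, in the same order of animals.

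Saa3, the member also made outside hepatocytes, had a lower signal but a rise of similar size. Its Cy5 signals in exposed run 1 were 11777, 5326.5, 64866.5 and 43401.5. Exposed runs 2 and 3 lay between 911 and 2826.5, and the controls between 692.5 and 35985 with a median of 1348.25. Controls 549 and 551 had 6975 and 35985. At all 4 probes of Saa1, Saa2 and Saa3 the order within exposed run 1 was animal 179, then 180, 176 and 177.

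Saa4, the constitutive member, gave different answers at its 2 probes. At A_51_P142529 exposed run 1 had Cy5 signals of 11299, 14476, 17587 and 12234.5, exposed runs 2 and 3 lay between 7343 and 11806, and the controls between 4663 and 17111. After each array was scaled by its 75th percentile, the 4 animals lay between 5.16 and 5.61 on the log2 scale and above each of the other 26, whose highest was control 551 at 5.10. At A_52_P404329 the same 4 animals had 3067, 2806.5, 6404 and 3926 within a control range of 2597.5 to 9115.

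Tests on Cy5 alone used limma on log2 Cy5 after normexp background correction, scaled by the 75th percentile of each array, with slide as a random block and Benjamini-Hochberg adjustment over all 23607 probes. In exposed run 1 against the mean of the 3 control runs, 5 of the 6 member probes rose at an adjusted p below 0.05, where 2.41% of all tested probes rose. The log2 difference at Saa1 was 4.05 ± 0.58 (SE; 16.5-fold; adjusted p = 5.0e-05) by A_52_P318673 and 4.08 ± 0.61 (16.9-fold; adjusted p = 8.9e-05) by A_51_P361650. Saa2 rose by 3.72 ± 0.56 (13.1-fold; adjusted p = 8.5e-05) and Saa3 by 3.83 ± 0.55 (14.2-fold; adjusted p = 5.0e-05). These were the 4 highest differences of all 23607 probes in this comparison, where the median probe stood at 0.07. The SEs and adjusted p rest on 1 spread per probe for all 6 runs, whose own SDs differed. Saa4 rose by 0.98 ± 0.15 (1.97-fold; adjusted p = 7.5e-05) at A_51_P142529 and stood at 0.12 ± 0.14 (adjusted p = 0.716) at A_52_P404329. The calls of the 4 probes that stand for the genes held when any 1 of the 30 animals was left out, with lowest values of 3.57, 3.27, 3.24 and 0.90 for Saa1, Saa2, Saa3 and Saa4.

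The comparison of all 14 exposed with all 16 control animals gave no call in the family. In Cy5 alone the log2 differences were 0.75 ± 0.62 for Saa1 (adjusted p = 0.694), 0.74 ± 0.58 for Saa2 (adjusted p = 0.677), 0.74 ± 0.58 for Saa3 (adjusted p = 0.674) and 0.23 ± 0.15 for Saa4 (adjusted p = 0.613) in the limma fit, with 0.00847% of all probes called. The lowest unadjusted p of the 6 probes in this fit was 0.132. The 95% intervals, taken with the degrees of freedom of the fit of 6 run means, were wide. They ran from -0.52 to 2.02 for Saa1 and from -0.44 to 1.92 for Saa2. With the 6 run means weighted equally, limma gave 1.01 ± 0.38 for Saa1 (unadjusted p = 0.0123) and 0.97 ± 0.36 for Saa2 (unadjusted p = 0.0118). Saa3 stood there at 0.99 ± 0.36 (unadjusted p = 0.0099) and Saa4 at 0.28 ± 0.10 (unadjusted p = 0.0056). The second Saa4 probe stood at 0.05 ± 0.09. No member passed (adjusted p 0.238 to 0.871), and 2554 of all 23607 probes had an unadjusted p below 0.05. Exposed run 2 against the 3 control runs gave no member call and no call at all (0% of 23607 probes; 1432 at an unadjusted p below 0.05). Saa1, Saa2 and Saa3 stood there at -0.24 ± 0.54, -0.06 ± 0.51 and -0.31 ± 0.51. In exposed run 3 they stood at -0.77 ± 0.54, -0.73 ± 0.51 and -0.53 ± 0.51, again with no member call and 0.00847% of all probes called.

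The exposed runs differed among themselves at 5 of the 6 probes (limma moderated F test on Cy5 alone, adjusted p = 1.2e-04 for Saa1, 2.2e-04 for Saa2, 1.6e-04 for Saa3 and 3.8e-04 for Saa4 at the representative probes), where 1.94% of all probes did. A_52_P404329 did not pass (adjusted p = 0.621). The control runs gave no member call (0.0974% of all probes), with adjusted p from 0.586 to 0.7098 and unadjusted p from 0.0087 to 0.0302.

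For Saa2 the run means of scaled log2 Cy5 were, from high to low, 9.11 ± 1.32 (SD, n = 4) in exposed run 1, 6.56 ± 1.91 (n = 6) in control run 1, 5.32 ± 0.66 (n = 5) in exposed run 2, 4.97 ± 0.56 (n = 5) in control run 2, 4.70 ± 0.43 (n = 5) in control run 3 and 4.60 ± 0.91 (n = 5) in exposed run 3. From control run 1 downwards, neighbours in this order differed by less than the larger of their SDs. The main fits assume the same spread in every run, whereas these SDs ran from 0.43 to 1.91. Saa3 had 5.92 ± 1.63 in exposed run 1 and 3.24 ± 1.83 in control run 1, and between 1.51 and 1.85 in the other 4 runs. Saa1 at A_52_P318673 had 8.66 ± 1.46 and 5.84 ± 1.98 in these first runs and between 3.79 and 4.37 in the others.

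Against control run 1 alone, the control run of the same place in number order, 4 of the 6 probes were called higher in exposed run 1, against 0.47% of all probes. The log2 Cy5 differences were 2.90 ± 0.66 for Saa1 (adjusted p = 0.0345 by limma), 2.63 ± 0.63 for Saa2 (adjusted p = 0.0453), 2.77 ± 0.63 for Saa3 (adjusted p = 0.0319) and 0.76 ± 0.16 for Saa4 at A_51_P142529 (adjusted p = 0.0232). A_51_P361650 of Saa1 stood at 2.81 ± 0.71 (adjusted p = 0.0598). In the log2 ratio no member probe was called in this comparison, where 31 of all 23607 probes rose. There limma gave 2.08 ± 0.54 for Saa3 (adjusted p = 0.102) and 0.40 ± 0.27 for Saa1 at A_52_P318673 (adjusted p = 0.603). Saa2 stood at -0.41 ± 0.18 (adjusted p = 0.347) and Saa4 at A_51_P142529 at 0.17 ± 0.23 (adjusted p = 0.834). The 4 Cy5 calls sit near the threshold. Quantile scaling, slide as a fixed block and the 25 arrays of the newer software alone each ended all 4. Of all alternatives run, 8 of 11 ended the Saa2 call, 5 of 12 the Saa1 call and 4 of 11 the Saa3 call. For Saa4, 3 of 12 ended the call and 1 turned its sign. The Saa1 and Saa3 calls each held in 23 of 30 fits that left out 1 animal, the Saa2 call in 14 and the Saa4 call in 25. Leaving out control 547, 548, 550 or 552, or exposed 176, 179 or 180, ended the Saa1 and Saa3 calls, and also the Saa2 call, which was lost as well without control 570, 599 or 600 or exposed 194, 195, 197, 212, 215 or 216. The Saa4 call was lost without control 547, 550 or 552 or exposed 177 or 179. Without controls 549 and 551, chosen for their high values, the Cy5 differences were 4.16 for Saa1, 3.86 for Saa2, 3.93 for Saa3 and 0.86 for Saa4. The labels do not pair the runs of the groups, so the match by place is a reading of the numbers only.

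On 4 slides an animal of exposed run 1 was hybridised beside one of control run 1. The Saa2 Cy5 signals were 350042 in animal 180 against 6401 in control 547 on slide 1, and 138646 in animal 176 against 26227 in control 550 on slide 2. On slide 5 animal 179 had 439149 against 17785 in control 548. On slide 8 the order turned, with 56553 in animal 177 against 84226 in control 549. Saa1 and Saa3 gave the same 3 slides higher and the same 1 lower, and Saa4 at A_51_P142529 was higher in the exposed animal on all 4.

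At the 4 probes that stand for the genes, the Cy5 step from runs 2 and 3 to run 1 was larger in exposed than in control mice. This difference of steps did not pass the adjustment at any member probe. It was 2.82 ± 0.81 for Saa1, 2.49 ± 0.77 for Saa2, 2.67 ± 0.77 for Saa3 and 0.71 ± 0.20 for Saa4 at A_51_P142529 in Cy5 alone. At these 4 probes adjusted p by limma ran from 0.374 to 0.445 and unadjusted p from 0.0012 to 0.0030. The second Saa1 probe, A_51_P361650, stood at 2.70 ± 0.86 (adjusted p = 0.456). The second Saa4 probe, A_52_P404329, went the other way, at -0.30 ± 0.19 (adjusted p = 0.626). Of all 23607 probes, 0.00424% passed.

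The reference channel did not stay level at Saa1 and Saa2. Cy3 carries the same reference RNA on every array, yet at the Saa2 spot its signal was 3695.5, 2277, 13039 and 11899 in exposed run 1 and 3708 and 9693.5 in controls 549 and 551. In the other 24 animals it ranged from 193 to 2375. The 5 highest reference signals were those of animals among these 6, and animal 177 came after exposed animal 195 at 2375. Cy3 net of background was 2.65% to 3.999% of net Cy5 there in exposed run 1 and 1.68% to 5.56% in the other 26 animals. At the Saa1 probe A_51_P361650 the Cy3 signal was 975.5, 873.5, 6620.5 and 5100.5 in exposed run 1, and between 80.5 and 887.5 in all other animals but controls 549 and 551, which had 1716 and 5037.5.

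**Figure D2:**
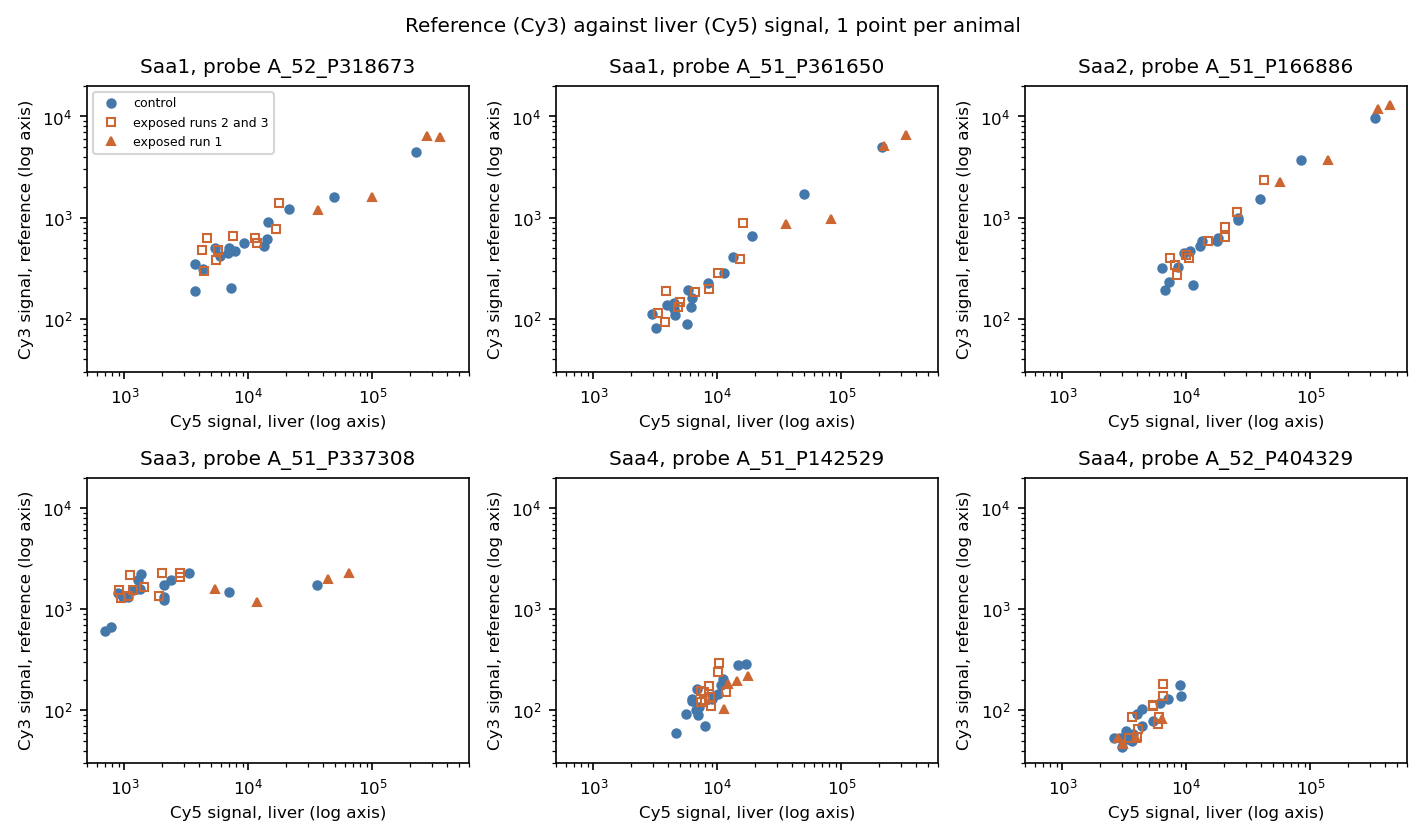
Cy3 signal of the common reference against Cy5 signal of the liver at the 6 probes, 1 point per animal, both axes logarithmic in fluorescence units. At Saa1 and Saa2 the Cy3 signal climbs with Cy5, while at Saa3 it stays between 607 and 2299 as Cy5 runs from 692.5 to 64866.5.

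At Saa3 the reference signal was 1167, 1578.5, 2271 and 1985 in exposed run 1 and between 607 and 2299 in the rest. Here the Cy3 ranges of exposed run 1 and of the other animals overlap fully, unlike at Saa1 and Saa2. In the limma fit on quantile-scaled Cy3, the 2 Saa1 probes and the Saa2 probe rose in exposed run 1 against the control runs, by 2.57 ± 0.41 (adjusted p = 0.0069), 3.26 ± 0.61 (adjusted p = 0.0292) and 3.30 ± 0.56 (adjusted p = 0.0086). Only 0.0424% of all probes, 10 in number, did so, Lrg1 (1.41 ± 0.23) and Serpina3n (0.81 ± 0.15) among them, both acute phase plasma proteins. Saa3 stood at 0.33 ± 0.11 (adjusted p = 0.677) and the Saa4 probes at 0.51 ± 0.16 and -0.11 ± 0.14 (adjusted p = 0.677 and 0.815).

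These Saa2 shares can be set beside those of other bright liver spots. Of 8918 spot readings with a net Cy5 above 50000 on the 30 arrays, the median net Cy3 was 3.395% of net Cy5, and 22.0% of the readings had a Cy3 share under 1%. Of 3431 readings with a net Cy5 above 100000, where animals 176, 179 and 180 lie at Saa2, the median was 1.58%, and 30.05% had a share under 1%. The Saa2 shares of exposed run 1 lay around the first of these medians and above the other. The part of the liver signal in these Cy3 values was not tested.

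The log2 ratio, which takes Cy3 from Cy5 and was loess-normalised, showed little of the rise at Saa1 and Saa2. In exposed run 1 against the control runs the ratio rose at 1 of the 6 probes, where 1.6% of all probes rose. That probe was Saa3 at 2.95 ± 0.48 (7.71-fold; adjusted p = 5.4e-04 by limma on log2 Cy5/Cy3 after normexp and loess), the second highest of all probes. Saa1 stood at 0.69 ± 0.24 (adjusted p = 0.0921) by A_52_P318673 and at -0.01 ± 0.21 (adjusted p = 0.992) by A_51_P361650. Saa2 stood at -0.49 ± 0.15 (adjusted p = 0.0605), below 0 while its liver signal was 13.1-fold higher. Without loess, with each array centred on its median, the Saa1 ratio was 1.58 and the Saa2 ratio 0.48. The parts of the Cy3 signal and of the loess step in the low ratios were not tested.

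**Figure D3:**
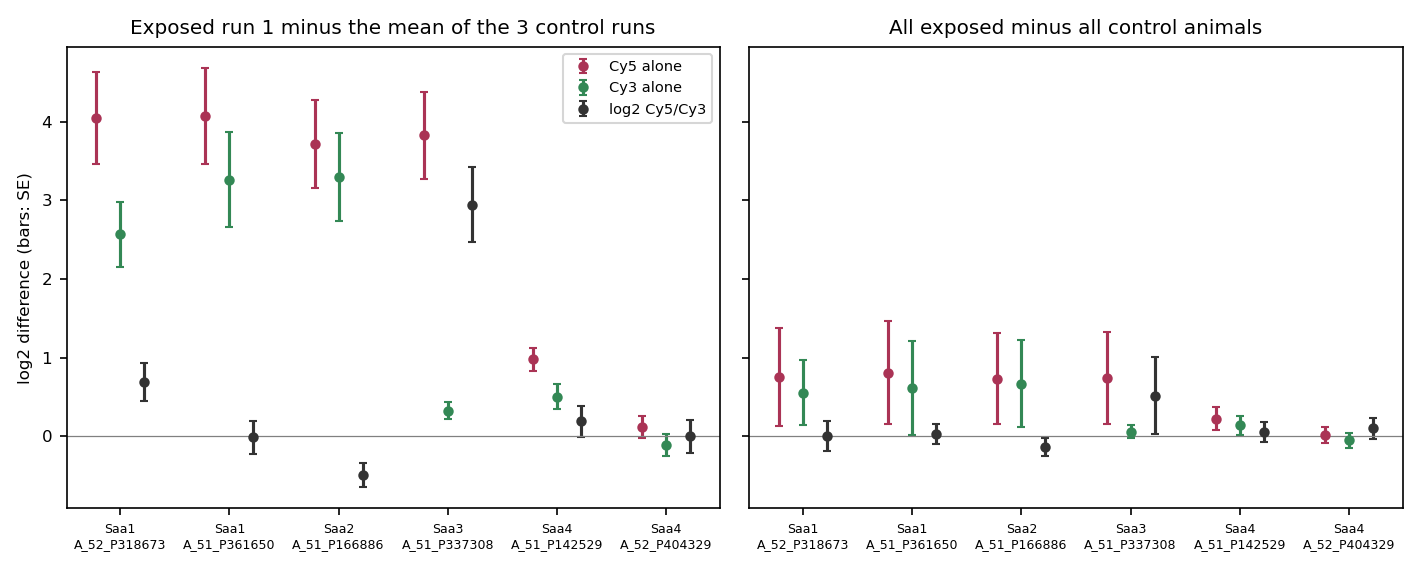
Log2 differences (vertical axis; points with SE) at the 6 probes in Cy5 alone, Cy3 alone and the log2 Cy5/Cy3 ratio, for exposed run 1 minus the 3 control runs (left) and all exposed minus all control mice (right). On the left the Cy5 points of Saa1 to Saa3 lie near 4, the Cy3 points of Saa1 and Saa2 follow them, and the ratio departs clearly from 0 at Saa3.

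By animal, the Saa3 ratio was 2.31, 1.48, 3.87 and 3.85 in exposed run 1. It was 2.29 in control 549 and 3.39 in control 551. The other exposed animals lay between -1.16 and 0.48 and the other controls between -0.85 and 0.39. The ratio thus set apart the same 6 animals as the liver signal did. The Saa2 ratio lay between 3.58 and 3.99 in exposed run 1 and between 3.66 and 4.86 in controls, so these ranges overlap. Over all exposed against all control animals the ratio differences were 0.00 ± 0.19 for Saa1, -0.13 ± 0.11 for Saa2, 0.52 ± 0.49 for Saa3 and 0.06 ± 0.12 for Saa4, none called, with 0.0169% of all probes called.

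Both genes with more than 1 probe allow a check within the gene. The Saa1 probes differed by a mean of 0.24 ± 0.15 (SD, n = 15 control animals) and 0.18 ± 0.13 (n = 4, exposed run 1) in scaled log2 Cy5. No change of this probe difference between exposed run 1 and the controls was detected (exact permutation test, two-sided p = 0.450, adjusted over 4 tests 0.450). The permutations took no account of slide. In the log2 ratio the probe difference moved by 0.70 (exact p = 0.0142, adjusted 0.0284). Their Cy5 values ranked the animals almost alike (Spearman rho = 0.99 over 29 animals).

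The Saa4 probes parted. A_51_P142529 exceeded A_52_P404329 by 0.93 ± 0.29 (n = 16) in controls and by 1.84 ± 0.39 (n = 4) in exposed run 1, a shift of 0.91 (exact permutation test, two-sided p = 4.1e-04, adjusted 0.0017). In the ratio the shift was 0.20 (exact p = 0.253, adjusted 0.337). Over the 30 animals the Cy5 of A_51_P142529 had a Spearman rho of 0.75 with Saa1 at A_52_P318673 and of 0.20 with the other Saa4 probe. Saa1 and Saa2 are close paralogs and their probes had a rho of 0.96 with each other, and Saa3 had 0.96 with Saa1. All these points share their arrays. Probe sequences are not in the sources used here, so hybridisation of one member's transcript to another member's probe was not tested, and the values of each probe are those of its labelled transcript only as far as the array design goes.

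**Figure D4:**
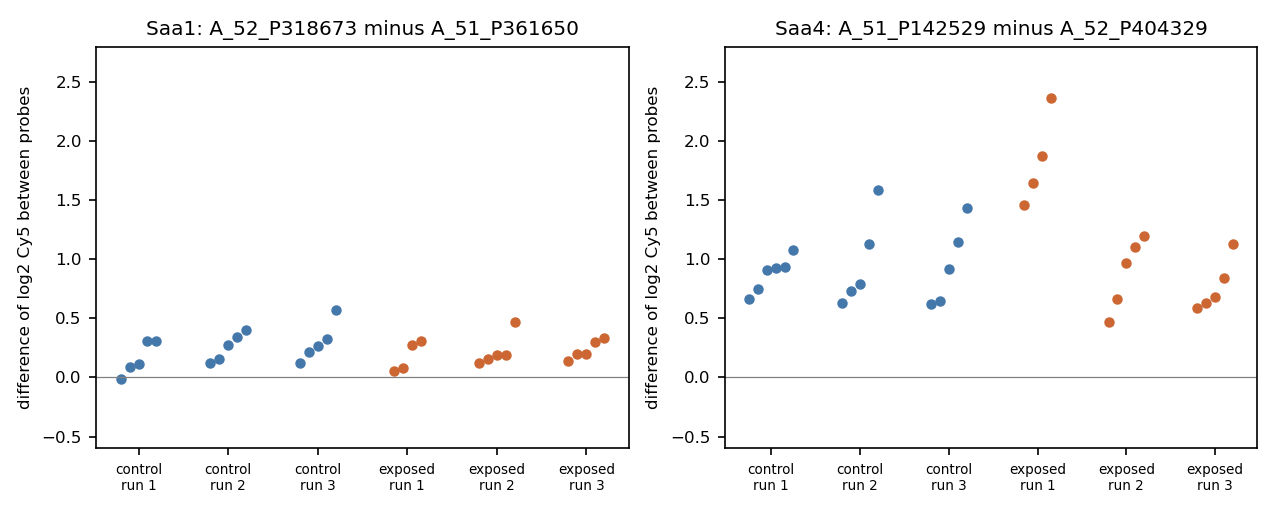
Difference in scaled log2 Cy5 between the 2 probes of Saa1 (left) and of Saa4 (right), 1 point per animal, by group and run and ordered by value within a run (29 animals for Saa1). The Saa1 difference stays between -0.01 and 0.57, whereas the Saa4 difference reaches 1.46 to 2.37 in exposed run 1 and 0.47 to 1.59 elsewhere.

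Some other acute phase plasma proteins rose in exposed run 1, in Cy5 alone each by less than Saa1, Saa2 and Saa3. Of 30 such genes on a list, 29 were tested, and in Cy5 alone 12 rose, 1 fell and 16 did not pass in exposed run 1 against the control runs, where 3.16% of all probes were called. The median of the list was 0.53 and that of all probes 0.07. Serpina3n, a serine protease inhibitor, rose by 1.70 ± 0.20 (adjusted p = 3.9e-06), Lcn2, the iron-siderophore binder lipocalin 2, by 3.56 ± 0.43 (adjusted p = 4.0e-06), Lrg1 by 2.04 ± 0.25 (adjusted p = 6.0e-06) and Itih3 by 0.76 ± 0.12 (adjusted p = 2.0e-04). The gene that fell was Hamp2, a hepcidin paralog (-1.12 ± 0.29, adjusted p = 0.0261). In the log2 ratio 2 of the 29 rose, where 1.6% of all probes did, Lcn2 (3.02 ± 0.38) and Serpina3n (0.64 ± 0.16). The Lcn2 ratio was thus not below that of Saa3 (2.95), Saa1 (0.69 and -0.01) or Saa2 (-0.49). Against control run 1 alone 4 rose in Cy5, Serpina3n, Lcn2, Lrg1 and Hp, where 0.47% of all probes rose. Over all exposed against all control animals limma called none of the 29 in Cy5. An unadjusted p below 0.05 was found there for 3 of the 29, against 2353 of all 23607 probes.

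**Figure D5:**
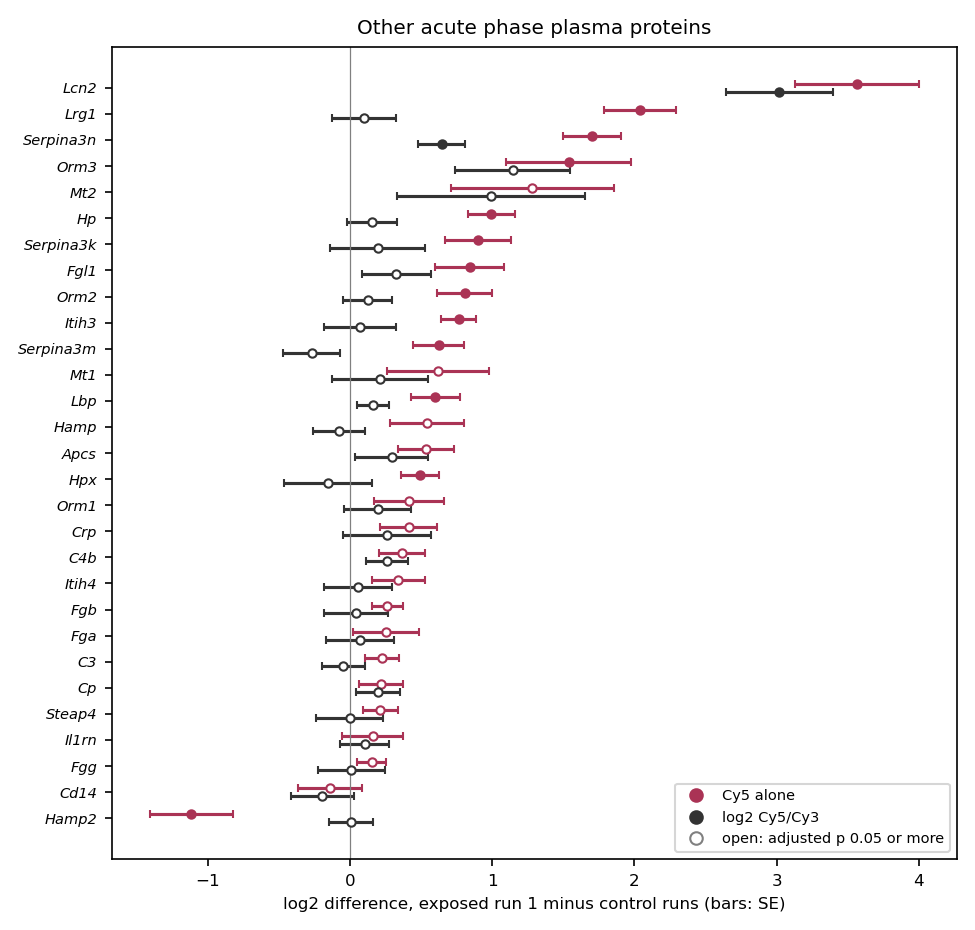
Log2 difference of exposed run 1 minus the 3 control runs (horizontal axis; bars are SE) for the 29 tested acute phase plasma proteins outside the Saa family, in Cy5 alone and in log2 Cy5/Cy3; filled points have an adjusted p below 0.05. In Cy5 12 filled points lie right of 0 and Hamp2 lies left, and in the ratio Lcn2 and Serpina3n are filled.

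At the adjusted threshold, genes of the signalling that drives Saa transcription were called about as often as probes in general. At an unadjusted p below 0.05 their share was larger. Of 39 inducers, receptors and transcription factors 33 were tested. In Cy5 1 was called by limma in exposed run 1, a fall, where 3.16% of all probes were called. An unadjusted p below 0.05 was found for 10 of the 33, against 3864 of all 23607 probes. The list median was 0.12 and that of all probes 0.07. Lifr, the leukaemia inhibitory factor receptor, fell by 1.15 ± 0.27 on the log2 scale (adjusted p = 0.0104). Stat3 stood at 0.44 ± 0.14 (adjusted p = 0.0838), Cebpb at 0.83 ± 0.27 (adjusted p = 0.0881) and Socs3, a feedback inhibitor of STAT3 signalling, at 0.52 ± 0.19 (adjusted p = 0.139). In the ratio Rela, an NF-kB subunit, was the gene that fell (-0.32 ± 0.09, adjusted p = 0.0381).

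Among 20 carriers and receptors of serum amyloid A, 19 were tested, of which 5 rose and 14 did not pass in Cy5, where 2.41% of all probes rose (list median 0.19). Apoa4, an apolipoprotein, rose by 1.60 ± 0.19 (adjusted p = 3.9e-06), Apoa1, the main protein of high-density lipoprotein, by 0.46 ± 0.11 (adjusted p = 0.0171), Scarb2 by 0.45 ± 0.12 (adjusted p = 0.0326) and Lcat, which esterifies its cholesterol, by 0.45 ± 0.12 (adjusted p = 0.0368). In the ratio 1 of the 19 rose, Apoa4 (1.05 ± 0.23), where 1.6% of all probes rose.

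Markers of other cells were followed in the same comparison, where 3.16% of all probes were called in Cy5. Of 5 tested neutrophil markers out of 14, 1 rose in Cy5, S100a9 at 0.97 ± 0.27 (adjusted p = 0.0365), and their summed level was 4.25 to 7.04 times the 75th percentile signal of the array in exposed run 1 and 1.92 to 6.89 in controls. Of the neutrophil list, S100a9 and Chil3 were well above background on 30 arrays, Mmp9 on 23, and S100a8 and Mpo on 17 each. Csf3r was on 10, Ltf and Retnlg on 8 each, Cxcr2 on 7, Ngp, Camp and Mmp8 on 2 each, and Elane on 0. Of 14 tested Kupffer cell and macrophage markers out of 17, 1 was called, Mpeg1, which fell (-0.67 ± 0.16, adjusted p = 0.0119). An unadjusted p below 0.05 was found for 7 of the 14, against 3864 of all 23607 probes. The median of this list was -0.33, with a summed level of 93.0 to 141 in exposed run 1 and 92.9 to 219 in controls. Of the adipocyte list 3 of 8 were tested and Fabp4 fell (-1.01 ± 0.19, adjusted p = 0.0016), with a summed level of 5.46 to 10.08 against 7.94 to 13.1 in controls, while Fabp4, Cidec and Pparg were well above background on 30 arrays, Plin1 on 7, Retn on 6, Cfd on 4, Adipoq on 3 and Lep on 0. The lung epithelial list, with 4 of 8 tested, had no call and summed to 1.13 to 1.50 against 0.998 to 1.64. Of 9 tested hepatocyte markers Apoa1 rose and Ttr, the carrier transthyretin, fell (-1.39 ± 0.23, adjusted p = 3.3e-04), with a summed level of 2016 to 2357 against 1403 to 2405. The part of these cells in the Saa values was not tested.

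By the log2 ratio over the 30 animals, the genes ranked most like Saa3 were Lcn2 (Spearman rho = 0.83; 0.71 over 16 controls and 0.91 over 14 exposed), Slc41a2 (0.77), Hsd17b10 (0.77), Orm3 (0.77) and Llgl2 (0.76). For Saa1 they were Lcn2 (0.77), Ap5s1 (0.75), Lbp (0.75), Serpina3n (0.75) and C4b (0.74). The Saa2 ratio ranked with other genes, Iigp1 (0.88), Plac9a (0.86), Gpr182 (0.85), Glul (0.85) and Robo4 (0.84), and the Saa4 ratio with Apof (0.95), Ttc36 (0.95), Mgll (0.94), Pipox (0.93) and Aadac (0.93). In Cy5 alone Lcn2 came first for Saa1 (0.83) and Saa2 (0.81) and second for Saa3 (0.77), after Rpl13a (0.78). Over the 24 animals without exposed run 1 and controls 549 and 551, these rho with Lcn2 were 0.67, 0.62 and 0.56. In the ratio, rho with Lcn2 was then 0.68 for Saa3 and 0.57 for Saa1. Saa2 kept 0.86 with Iigp1 and Saa4 0.96 with Apof. These points share arrays, slides and the reference, and no test was made.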

How the data were processed

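Liver RNA of 30 mice (16 control, 14 exposed) was hybridised with a common reference on 2-colour Agilent arrays, and each animal's group came from its title in the labels. The deposited scanner files hold the Cy5 and Cy3 intensity of each spot and a log10 ratio of processed signals, per the file headers, which name Feature Extraction 10.7.3.1 or 10.1.1.1. The authors' deposited value table holds log2 ratios, whose centring and normalization are not given in the sources used here; its 30 columns each matched their own array best. Probes were named through RefSeq transcripts (GRCm38.p6), with 24375 of 41174 probes named.

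Median spot signals were corrected with normexp (offset 50), and ratios were loess-normalised within arrays, with outlier spots set missing. Probes with Cy5 well above background on at least 14 arrays were kept. The design's main readout was the log2 ratio, with log2 Cy5 alone as an alternative. Because the reference signal moved at Saa1 and Saa2, the report gives both. limma 3.58.1 (R 4.3.3) was fitted to all 30 arrays as 2 groups and as 6 run means, with slide as a random block (correlation 0.147 for the ratio and 0.255 for Cy5 over the 6 means) and Benjamini-Hochberg adjustment over all 23607 probes. On simulated data with the same spread in every run, the fits recovered the mean of known changes, which does not test unequal spreads. Where a gene had several tested probes, the one brightest in Cy5 on average stood for it. Each list was described by its counts, its median and up to 4 members of smallest p, and likeness was given by the 5 highest rho. The members, lists and tests were chosen with earlier results of these data known. The study's design text states 6 mice per group, against 16 and 14 arrays. The number of animals limits the precision.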

Additional observations from a re-analysis of the deposited data

Results flagged for a closer look

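Of 72 sets of values (6 probes, 6 runs, Cy5 alone and the ratio), 4 held an animal far from the rest of its run, where chance alone flags about 5% of such sets. In scaled log2 Cy5, control 570 stood at 4.87 for Saa1 (A_51_P361650) in control run 2, whose next value was 3.78. Exposed animal 196 stood at 3.77 for Saa4 (A_51_P142529) in exposed run 2, below a next value of 4.20, and exposed animal 213 at 4.55 for the same probe in exposed run 3, above 4.31. In the log2 ratio, exposed animal 195 stood at 3.996 for Saa1 (A_51_P361650), below 4.78 in the next animal of exposed run 2. Controls 549 and 551 were not flagged in this way, since the pair is high together.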

How the results depend on the processing

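A change of sign was counted where a value was past the threshold in either fit or moved by more than its SE. The Cy5 rise of Saa1, Saa2 and Saa3 in exposed run 1 against the control runs kept its direction and call under every alternative run, with values of 3.77 to 4.41, 3.404 to 4.07 and 3.46 to 4.16. So did the Saa3 ratio (2.91 to 3.83). Saa4 in Cy5 lost its call at the other probe (0.12; among exposed runs F = 1.30).

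In the ratio, Saa1 in exposed run 1 (0.69) passed the threshold with no background correction (0.76), median centring (1.58), Agilent's processed ratio (1.33), the deposited table (0.82), without controls 549 and 551 (0.79) and in Cy5 alone (4.05), and was -0.0074 at the other probe. Saa2 (-0.49) turned to 3.72 in Cy5 alone, 0.48 with median centring and 0.28 with Agilent's ratio, and passed as a fall with Cy5 above background on all arrays (-0.49), with array weights (-0.48) and without controls 549 and 551 (-0.52). Leaving out 1 animal gave -0.58 to -0.42, with a call without control 551, 574 or 595. Saa4 was 0.98 in Cy5 alone.

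Over all exposed against all control animals the Saa2 ratio (-0.13) was 0.74 in Cy5 alone, 0.057 with median centring and 0.0051 with Agilent's ratio, and Saa4 (0.06) was -0.12 with Agilent's ratio, none past the threshold. The F among exposed runs for the Saa1 ratio (7.42) passed at 27.3 in Cy5 alone, 9.35 without background correction, 22.5 with median centring, 15.8 with Agilent's ratio, 11.1 with the deposited table, 7.29 with Cy5 above background on all arrays and 8.61 without controls 549 and 551, and ranged from 5.16 to 11.7 when 1 animal was left out, with a call without exposed 213 or control 549, 572 or 574. Saa2 and Saa4 reached 24.8 and 22.7 in Cy5 alone.

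Other signs turned as follows. For Saa2 the ratio of exposed run 1 against control run 1 was 2.63 in Cy5 alone, 0.45 with median centring and 0.31 with Agilent's ratio, exposed run 2 against the control runs was -0.16 with Agilent's ratio, and exposed run 3 was -0.73 in Cy5 alone and -0.15 with median centring. Its difference of steps was 2.49, 0.55 and 0.43 in Cy5 alone, with median centring and with Agilent's ratio. At the other probe Saa1 was 0.010 in exposed run 3 and -0.027 in the difference of steps. Saa4 at its other probe was -0.17 (ratio) and -0.15 (Cy5) in exposed run 1 against control run 1, 0.31 in exposed run 3 against control run 3, and -0.43 (ratio) and -0.30 (Cy5) in the difference of steps. With Agilent's ratio Saa4 was -0.23 in exposed run 3 against the control runs and -0.14 in exposed run 2 against control run 2, and in Cy5 alone it was 0.20 in exposed run 3 against control run 3. The cause was not tested.

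Calls over all probes in exposed run 1 against the control runs were 746 in Cy5 (292 with position as an added term to 1759 with array weights) and 1132 in the ratio (174 with median centring to 1981 with Agilent's ratio). For all exposed against all control they were 2 in Cy5 (0 to 222) and 4 in the ratio (0 to 166). Control and exposed animals share no number, so none were paired by number. Slide as a fixed block, which compares within slides, gave 4.10, 3.74, 3.88 and 0.94 for Saa1 to Saa4 in Cy5 in exposed run 1 against the control runs, all still called. The alternatives for Cy5 alone, scan day as the block and the fits without controls 549 and 551 were chosen after seeing the data. Fits without 1 animal kept the slide correlation of the full fit.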
